A study of Mus musculus with 16 samples.

Results

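Liver of wild-type C57BL/6N mice was examined here for 10 cytochrome P450 genes of family 4, chosen by name as the rows for Cyp4a10, Cyp4a12a, Cyp4a12b, Cyp4a14, Cyp4a31, Cyp4a32, Cyp4f13, Cyp4f14, Cyp4f15 and Cyp4v3 among 30463 genes. Bulk RNA sequencing covered 16 livers taken at 14 weeks of age, in 4 groups of 4 mice: DEN on high fat diet, vehicle on high fat diet, DEN on control diet and vehicle on control diet. DEN (diethylnitrosamine, an alkylating liver carcinogen) or vehicle was injected at 2 weeks of age, and the diet, labelled 60% fat for the high fat groups, began at 6 weeks. No sex is given in the labels. Values per liver are not given, because the library columns carry codes that match no sample label, so groups could not be formed. What is described is 1 comparison made by the authors, whose sides the table does not name: a positive log2 fold change means higher on its positive side, a negative one higher on its negative side.

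Family 4 enzymes put a hydroxyl group on the last carbon of a fatty acid chain, the omega end. Alcohol and aldehyde dehydrogenases then make a dicarboxylic acid, which peroxisomes shorten by beta-oxidation. In liver this route takes fatty acids that mitochondria do not oxidise, and rodent Cyp4a10 and Cyp4a14 are textbook targets of the fatty acid receptor PPAR alpha. The enzymes also hydroxylate arachidonic acid, leukotrienes and vitamins with long side chains.

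All 10 genes had an adjusted p-value in the authors' deposited table, so none was lost to a filter on low counts. A pair of them, Cyp4a12a and Cyp4a12b, was called at an adjusted p below 0.05, both on the positive side, and 8 were not called. That is 2 of 10, beside 6.57% of the 16288 tested genes called in either direction and 3.67% called positive. The 2 called genes are copies with a coding identity of 98.5%, so these calls may not be independent. At an unadjusted p below 0.05 there were 3 positive and 2 negative genes, beside 9.64% and 9.41% of all tested genes, 19% in all. The signs were split evenly, 5 positive and 5 negative, beside 49.2% positive among all tested genes. The negative genes include the near-identical copies Cyp4a10, Cyp4a31 and Cyp4a32, so the signs may not be independent either. The median log2 fold change of the 10 genes was -0.065, against -0.0044 for all tested genes. In bulk liver, fewer cells of a type and less RNA per cell cannot be told apart.

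**Figure D1:**
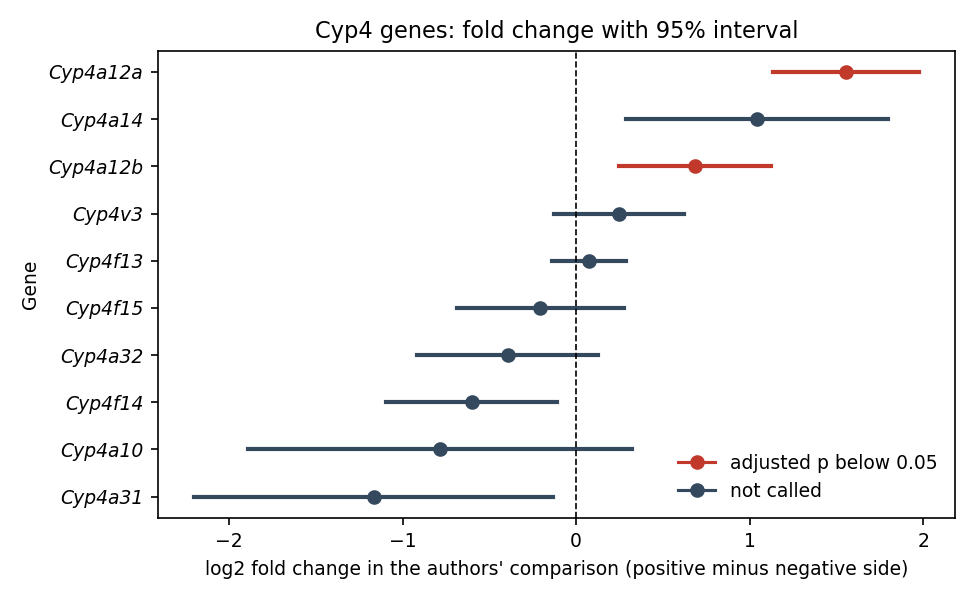
Log2 fold change of the 10 Cyp4 genes in the authors' comparison, from the authors' deposited table; points are estimates, lines 95% normal intervals from the authors' standard error, and red marks an adjusted p below 0.05. Cyp4a12a at 1.55 and Cyp4a12b at 0.69 are called, and the intervals of Cyp4a14, Cyp4f14 and Cyp4a31 also leave out 0 without a call.

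Cyp4a12a and Cyp4a12b encode the omega-hydroxylases that are more abundant in male than in female mouse liver and kidney, and Cyp4a12a is a main arachidonic acid omega-hydroxylase of the mouse. Cyp4a12a (ENSMUSG00000066071) lies on chromosome 4 from 115299046 to 115332815, plus strand, in GRCm38. Its fold on the positive side, computed from the authors' deposited table, was 2.93, with a 95% interval from 2.20 to 3.92. The adjusted p there was 2.41e-10, and by p-value it ranked 24 of the 16288 tested genes. Cyp4a12b (ENSMUSG00000078597) lies on the same chromosome and strand from 115411624 to 115439034. Its fold in the authors' deposited table was 1.61, with a 95% interval from 1.19 to 2.18, an adjusted p of 0.0370 and rank 903. Recomputed from the p-values of the authors' deposited table, the call of Cyp4a12b was lost with every gene in the Benjamini-Hochberg adjustment (adjusted p = 0.0684), with Bonferroni adjustment, with the statistic divided by its median absolute deviation (adjusted p = 0.578) and at a threshold of 0.01. The log2 fold changes in the authors' deposited table were 1.55 ± 0.21 for Cyp4a12a and 0.69 ± 0.22 for Cyp4a12b (SE), and both intervals lie above 0. Whether the 2 genes differed from each other was not tested, since the covariance of the 2 estimates needs values per library.

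The pair is nearly one sequence, which bears on how its counts can be split. Over 1524 coding bases aligned in GENCODE M21 the copies differed at 23, an identity of 98.5%, and the longest run without a difference was 342 bases. Of all windows of 50 bases in the transcripts, 48.9% of those of Cyp4a12a also occur in Cyp4a12b, and 49.4% of those of Cyp4a12b occur in Cyp4a12a. No source used here says how reads that match both were assigned, so the values of the single copies are uncertain. The 60 coding bases of exon 6 in which the copies differ most are shown with the 4 differing bases in capitals, at chr4:115326628-115326687 for Cyp4a12a and chr4:115432881-115432940 for Cyp4a12b, plus strand, GRCm38.
Cyp4a12a: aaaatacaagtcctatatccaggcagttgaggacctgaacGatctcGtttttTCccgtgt
Cyp4a12b: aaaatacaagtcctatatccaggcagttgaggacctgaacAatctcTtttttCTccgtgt
Most of this stretch is the same in both genes, and it is the one with the most differences. The mean of the 2 log2 fold changes, weighted by mean count, was 1.30, and the summed mean normalized count was 2513. That mean is not the fold change of the summed counts, which needs values per library.

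Cyp4a14 and Cyp4a10 were the most abundant members. Both encode omega-hydroxylases of medium-chain fatty acids such as lauric acid. The authors' deposited table gives Cyp4a14 (ENSMUSG00000028715) a mean normalized count of 9972 and Cyp4a10 (ENSMUSG00000066072) one of 8087, above 98.6% and 98.3% of tested genes. They lie side by side on chromosome 4, Cyp4a14 from 115486200 to 115496142 on the minus strand and Cyp4a10 from 115518264 to 115533649 on the plus strand. Cyp4a14 was at 1.04 ± 0.39 (log2 scale, SE) by the authors' deposited table, with an unadjusted p of 0.00695 and an adjusted p of 0.0825. Its fold from that table was 2.06, with a 95% interval from 1.22 to 3.47. Cyp4a10 was at -0.79 ± 0.56 (log2 scale, SE, adjusted p = 0.479) by the authors' deposited table, and its interval ran from -1.89 to 0.32. So neither PPAR alpha target was called, and their estimates had opposite signs. The interval of Cyp4a10 holds 0 as well as a 3.71-fold higher level on the negative side.

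Cyp4a31 and Cyp4a32 are the closest copies of Cyp4a10. Cyp4a31 (ENSMUSG00000028712) had a mean normalized count of 368.0 in the authors' deposited table and Cyp4a32 (ENSMUSG00000063929) one of 360.4. Cyp4a31 had the most negative estimate of the 10 genes, -1.17 ± 0.53 (log2 scale, SE), with an unadjusted p of 0.0268 and an adjusted p of 0.185 in the authors' deposited table. Cyp4a32 was at -0.39 ± 0.27 (log2 scale, SE, adjusted p = 0.445) by the authors' deposited table. Coding identity to Cyp4a10 was 96.6% for Cyp4a31 and 97.2% for Cyp4a32. All 3 copies had negative estimates and none was called. Windows of 50 bases that also occur in another gene made up 29.8% of Cyp4a10, 20.6% of Cyp4a31 and 43.8% of Cyp4a32. Per kb of exon, Cyp4a10 had 26.1 times the mean normalized count of Cyp4a31, so reads of the shared windows could belong to a far more abundant copy. Cyp4a14 shared 0.235% of its windows, and its highest coding identity to the other Cyp4a members was 75.9%, with Cyp4a12b. The 60 coding bases of exon 2 in which the 3 copies differ most are shown with the 9 differing bases in capitals, at chr4:115519640-115519699 for Cyp4a10, chr4:115565020-115565079 for Cyp4a31 and chr4:115602270-115602329 for Cyp4a32, plus strand, GRCm38.
Cyp4a10: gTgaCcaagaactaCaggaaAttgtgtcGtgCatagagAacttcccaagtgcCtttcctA
Cyp4a31: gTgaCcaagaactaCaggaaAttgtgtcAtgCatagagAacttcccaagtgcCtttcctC
Cyp4a32: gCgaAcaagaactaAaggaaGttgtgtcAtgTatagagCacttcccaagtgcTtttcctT
Over all 1527 coding bases the 3 copies differed at 77 positions, and the longest run without a difference was 148 bases.

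Cyp4f14, Cyp4f15 and Cyp4f13 stand together on chromosome 17 and were not called. Cyp4f14 (ENSMUSG00000024292, minus strand, 32905070 to 32917342) encodes an omega-hydroxylase of leukotrienes and of vitamin E. It was at -0.60 ± 0.25 (log2 scale, SE) by the authors' deposited table, with an unadjusted p of 0.0168 and an adjusted p of 0.139. On the negative side its level was 1.52-fold higher, with a 95% interval from 1.08 to 2.13, computed from that table. Cyp4f15 (ENSMUSG00000073424) was at -0.21 ± 0.25 and Cyp4f13 (ENSMUSG00000024055) at 0.076 ± 0.11 (log2 scale, SE), with adjusted p-values of 0.719 and 0.778 in the authors' deposited table. The interval of Cyp4f13 ran from -0.14 to 0.29, the narrowest of the 10 genes. These 3 genes share few windows of 50 bases with other genes, between 1.11% and 2.39%, and coding identity among them was 76.2% to 82.1%.

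Cyp4v3 (ENSMUSG00000079057), on chromosome 8 from 45304944 to 45333216 on the minus strand, is the mouse counterpart of human CYP4V2, the gene mutated in Bietti crystalline dystrophy. Its mean normalized count of 5632 ranked 3 among the members in the authors' deposited table. It was at 0.25 ± 0.19 (log2 scale, SE, adjusted p = 0.522) by the authors' deposited table, with an interval from -0.13 to 0.62. The transcripts share 7.02% of their windows with Gm45753, which overlaps Cyp4v3 on the same strand and had a mean normalized count of 0.114 in the authors' deposited table.

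Levels can be set beside each other per length of exon. Cyp4a10 and Cyp4a14 had 3835 and 3834 mean normalized counts per kb, and together made up 60.3% of the sum over the 10 genes per kb. Cyp4v3 followed at 1479 and Cyp4f14 at 1201 mean normalized counts per kb. Cyp4f15 at 741.4 and Cyp4a12a at 739.5 were next, ahead of Cyp4a12b at 301.2, Cyp4a32 at 234.7, Cyp4f13 at 214.3 and Cyp4a31 at 146.7 mean normalized counts per kb. These are the authors' means, and since the library columns were not used, which neighbours in that order differ was not tested. In this order the called genes Cyp4a12a and Cyp4a12b stood at 6 and 7, and the most abundant pair was not called. The order depends on annotated exon length, which was 1536 bases for Cyp4a32 and 4441 for Cyp4f13. By mean normalized count in the authors' deposited table, Cyp4f13 at 951.7 stood above Cyp4a12b at 721.4 and Cyp4a32 at 360.4. Sequence shared between near-identical copies also makes their single levels uncertain.

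**Figure D2:**
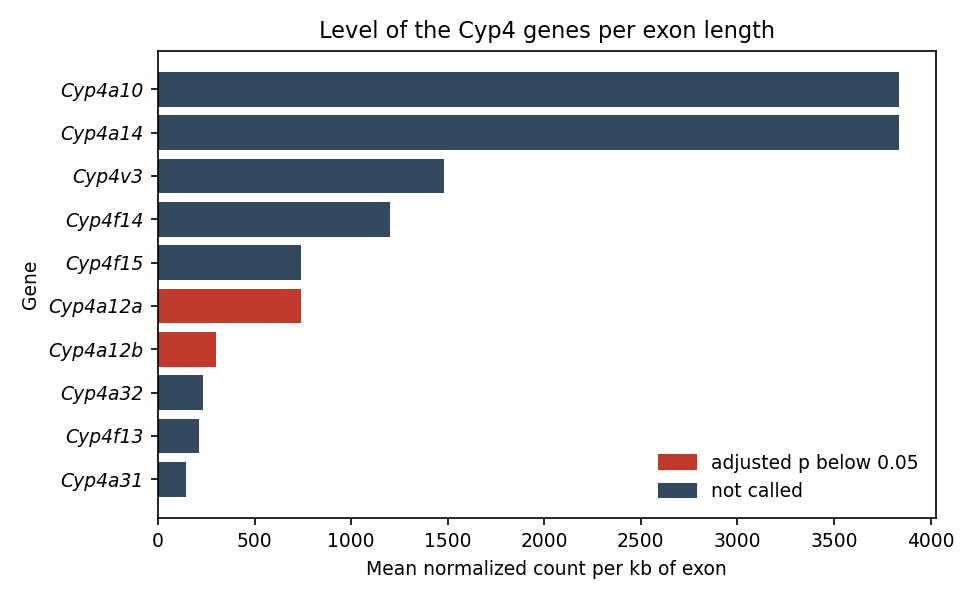
Mean normalized count per kb of exon for the 10 Cyp4 genes, from the authors' mean over libraries and GENCODE M21 exon lengths; the bars carry no error because the library columns, which match no sample label, were not used. Cyp4a10 and Cyp4a14, at 3835 and 3834 per kb, exceed the called genes Cyp4a12a at 739.5 and Cyp4a12b at 301.2. The order depends on annotated exon length, and shared sequence makes the bars of near-identical copies uncertain.

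The fold changes of the Cyp4 genes were estimated less precisely than those of most genes of like level. Each standard error was ranked among tested genes within 2-fold of the same mean count. For 8 of the 10 genes it stood above the 90th percentile. Cyp4a31, with an SE of 0.53 beside a median of 0.118 in 4515 genes of like level, stood at the 99.3 percentile, from values of the authors' deposited table. Cyp4a10, with an SE of 0.56 beside a median of 0.142 in the authors' deposited table, stood at 98.6. Cyp4a14 stood at 95.7 and Cyp4a12a at 91.4. Below the 90th percentile were Cyp4v3 at 76.7 and Cyp4f13 at 49.5. For Cyp4a10, Cyp4a14 and Cyp4a31 the lack of a call therefore goes with a wide interval and not with an estimate near 0. 

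**Figure D3:**
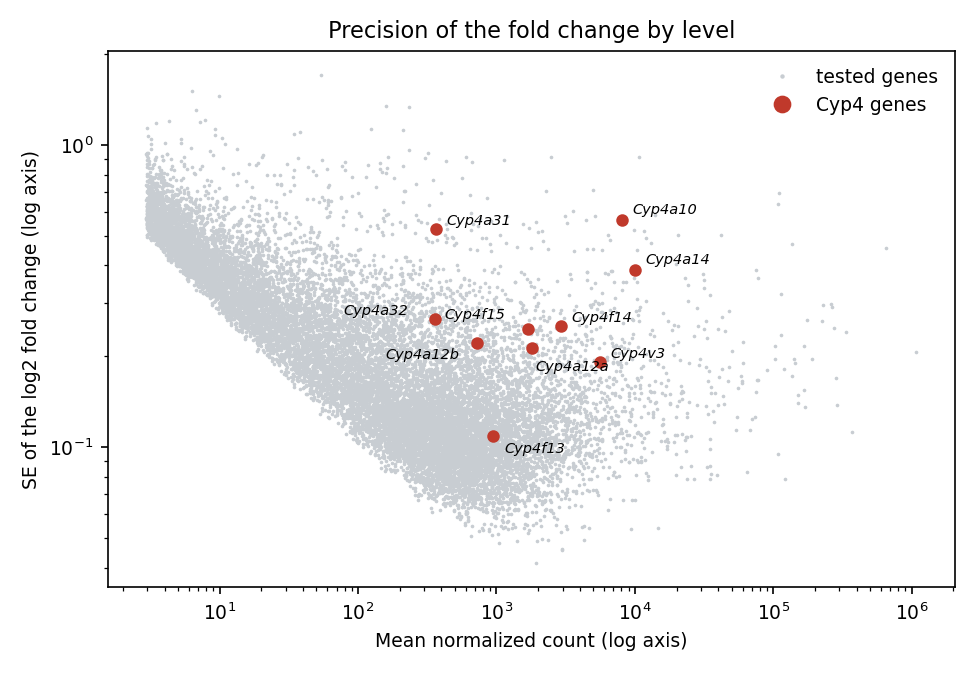
Standard error of the log2 fold change against mean normalized count for all 16288 tested genes (grey) and the 10 Cyp4 genes (red), both axes on a log scale, from the authors' deposited table. Cyp4a10 at 0.56, Cyp4a31 at 0.53 and Cyp4a14 at 0.39 stand above the bulk of genes of like level, and Cyp4f13 at 0.11 stands within it.

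The table holds 24 genes or pseudogenes with a Cyp4 name, 16 of them with an adjusted p. Of 10 further Cyp4 genes set for comparison, 5 were tested and 0 called, with a median log2 fold change of -0.33. Unadjusted p-values below 0.05 numbered 0 among them in the authors' deposited table. Cyp4f17 was at 0.30 ± 0.17, Cyp4b1 at -0.41 ± 0.26 and Cyp4f16 at -0.33 ± 0.26 (log2 scale, SE) by the authors' deposited table. Cyp4f39 was at -0.42 ± 0.37 and Cyp4f18 at -0.20 ± 0.48 (log2 scale, SE) by the authors' deposited table. Cyp4f17 had the highest mean normalized count of these 5 genes, 283.2, and Cyp4f39 the lowest, 14.6, in the authors' deposited table.

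The called Cyp4 genes are neighbouring copies. The Cyp4a members span chromosome 4 from 115299046 to 115621602. In order along it, Cyp4a12a, Cyp4a12b and Cyp4a14 had positive estimates and Cyp4a10, Cyp4a31 and Cyp4a32 negative ones. No other gene inside that span was tested. Of the 5 nearest tested genes on each side, 1 was called, beside 6.57% of all tested genes. It was the nucleotide kinase gene Cmpk1, at 0.26 ± 0.067 (log2 scale, SE, adjusted p = 0.00397) by the authors' deposited table. Inside the Cyp4f span on chromosome 17, from 32685627 to 32947402, 5 other genes were tested and 0 called. Of its 10 flanking genes 2 were called negative, beside 2.9% of all tested genes. Pglyrp2, which encodes a secreted peptidoglycan-cleaving enzyme of liver, was at -0.44 ± 0.092 (log2 scale, SE, adjusted p = 0.000146) by the authors' deposited table. A530088E08Rik, annotated as antisense, was at -0.80 ± 0.22 (log2 scale, SE, adjusted p = 0.00798) by the authors' deposited table. Without a stated strand setting its reads cannot be told from those of a gene on the other strand. It overlaps Pglyrp2, which lies on the other strand, so these 2 calls may not be independent. Near Cyp4v3, 1 of 10 flanking genes was called, beside 6.57% of all tested genes. It was the melatonin receptor gene Mtnr1a, at 1.73 ± 0.27 (log2 scale, SE, adjusted p = 1.04e-07) by the authors' deposited table.

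**Figure D4:**
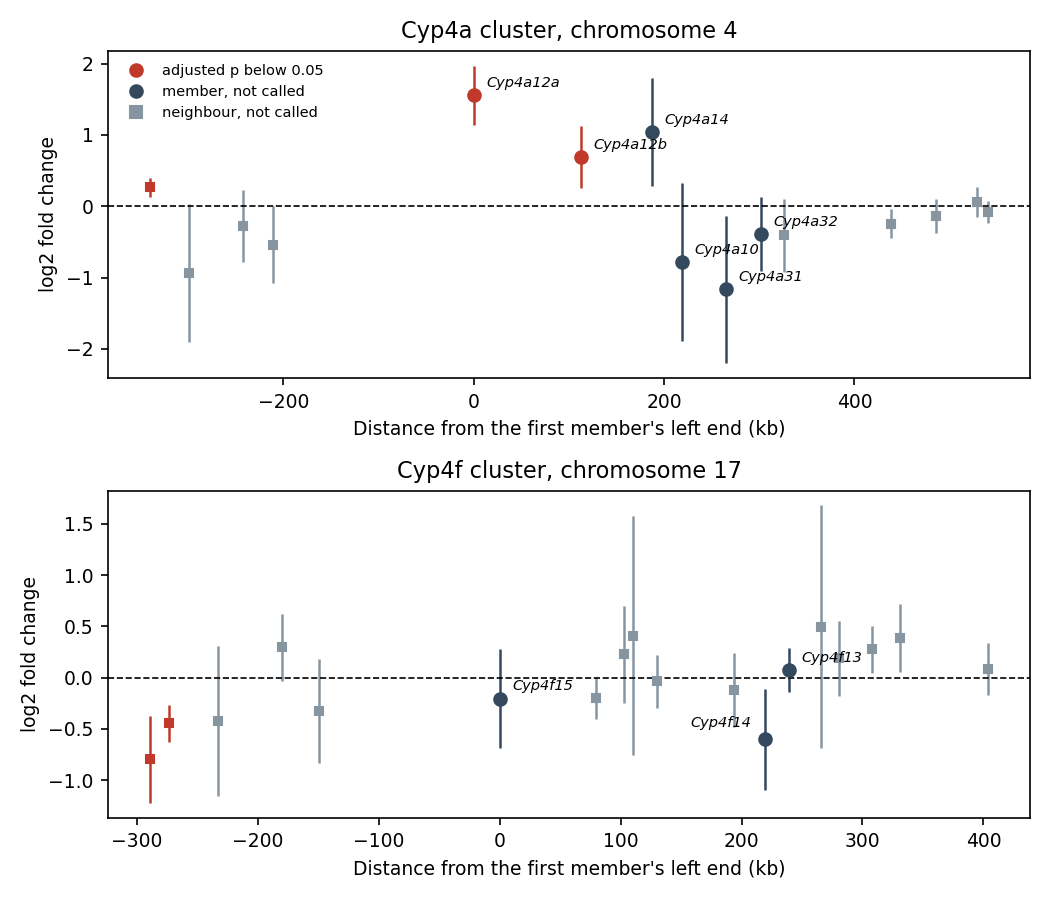
Log2 fold change with 95% interval of tested genes by distance in kb from the left end of the first member, for the Cyp4a cluster (top) and the Cyp4f cluster (bottom); circles are members, squares neighbours, red an adjusted p below 0.05, and genes over 600 kb away are not drawn. Estimates in the Cyp4a cluster are positive for Cyp4a12a, Cyp4a12b and Cyp4a14 and negative for Cyp4a10, Cyp4a31 and Cyp4a32.

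RefSeq promoter windows on GRCm38.p6, from 250 bases before to 50 after the start site, were found for 5 of the 10 genes: Cyp4a32, Cyp4f13, Cyp4f14, Cyp4f15 and Cyp4v3. They were searched on both strands for the nuclear receptor half-site AGGTCA, for the DR1 repeat of that half-site (a pair of copies with 1 base between, up to 2 mismatches), for the STAT motif TTCNNNGAA and for the HNF4 motif CAAAGTCCA. Of 32851 windows in the table, 16.3% hold the half-site, 3.86% the repeat, 8.30% the STAT motif and 0.475% the HNF4 motif. The only match was a STAT motif in Cyp4f13, from 22 bases before the start site. The window of Cyp4f13 (chr17:32947312-32947611, minus strand) is shown with that match in capitals. The window of Cyp4a32 (chr4:115600688-115600987, plus strand) is shown for comparison and holds none of these motifs.
Cyp4f13: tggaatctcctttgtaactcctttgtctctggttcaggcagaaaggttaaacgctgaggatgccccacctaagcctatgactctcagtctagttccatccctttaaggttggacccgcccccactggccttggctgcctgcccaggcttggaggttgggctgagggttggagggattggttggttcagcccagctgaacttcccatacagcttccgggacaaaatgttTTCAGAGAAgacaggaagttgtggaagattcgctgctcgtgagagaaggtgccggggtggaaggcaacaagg
Cyp4a32: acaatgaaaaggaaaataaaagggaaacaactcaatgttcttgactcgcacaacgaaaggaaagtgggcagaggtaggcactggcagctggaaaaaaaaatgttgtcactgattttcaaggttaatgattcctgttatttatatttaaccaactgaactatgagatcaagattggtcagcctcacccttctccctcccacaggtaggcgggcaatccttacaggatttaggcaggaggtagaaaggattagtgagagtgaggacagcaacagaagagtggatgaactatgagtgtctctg
A match of letters is a description of these windows and shows no binding.

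Genes that act beside the Cyp4 enzymes were described by lists chosen with earlier results known. P450 electron donors had 0 of 7 tested genes called positive and 1 negative, beside 3.67% and 2.9% of all tested genes. The called gene was Por, the reductase that supplies microsomal P450 enzymes with electrons, at -0.70 ± 0.14 (log2 scale, SE, adjusted p = 6.14e-05) by the authors' deposited table. Cyb5a, cytochrome b5, was at 0.14 ± 0.13 (log2 scale, SE, adjusted p = 0.644) by the authors' deposited table. Of 9 tested alcohol and aldehyde dehydrogenases 2 were called positive and 1 negative, beside 3.67% and 2.9% of all tested genes. The list had a median log2 fold change of 0.14. Aldh3a2, the fatty aldehyde dehydrogenase of omega-oxidation, was higher on the positive side at 1.17 ± 0.30 (log2 scale, SE, adjusted p = 0.00444) by the authors' deposited table. Aldh1a1, best known for oxidising retinaldehyde, was at 0.78 ± 0.14, and Aldh3b1, which acts on lipid aldehydes, at -0.67 ± 0.21 (log2 scale, SE), both called in the authors' deposited table. So the reductase shared by P450 enzymes and the fatty aldehyde dehydrogenase were called on opposite sides.

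Downstream, 4 of 18 genes for dicarboxylic acid activation and peroxisomal oxidation were called, all on the positive side, beside 3.67% of all tested genes, with a median log2 fold change of 0.23. Without genes that another list also holds, 2 were called. Acaa1a, a peroxisomal thiolase gene, was at 0.53 ± 0.098 (log2 scale, SE) by the authors' deposited table. Slc27a4, a fatty acid transport protein gene, was at 0.42 ± 0.13 (log2 scale, SE, adjusted p = 0.0279) by the authors' deposited table. The thiolase gene Acaa1b had the highest estimate of the list, at 1.76 ± 0.33 (log2 scale, SE) by the authors' deposited table. Ehhadh, the peroxisomal bifunctional enzyme that handles dicarboxylic acids, was at 0.37 ± 0.35 (log2 scale, SE, adjusted p = 0.625) by the authors' deposited table. Fatty acid supply genes had 1 of 17 called positive and 0 negative, the fatty acid transporter gene Cd36, beside 3.67% positive among all tested genes. Without genes that another list also holds, 0 were called.

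PPAR alpha targets other than Cyp4 genes had 12 of 32 tested members called positive and 0 negative, beside 3.67% of all tested genes, with a median log2 fold change of 0.39. Fitm1, Vnn1, Pex11a and Cd36 had the smallest p-values, and Fitm1 was at 2.46 ± 0.26, Vnn1 at 1.63 ± 0.28, Pex11a at 0.94 ± 0.17 and Cd36 at 1.43 ± 0.26 (log2 scale, SE) by the authors' deposited table. Aqp7, at 2.82 ± 0.65 (log2 scale, SE), had a mean normalized count of 5.18 in the authors' deposited table. In this list Cpt1a, the carnitine acyltransferase of mitochondrial fatty acid entry, was at -0.34 ± 0.13 (log2 scale, SE, adjusted p = 0.0834) by the authors' deposited table. Ppara itself was at 0.0089 ± 0.17 (log2 scale, SE, adjusted p = 0.987) and its partner Rxra at -0.054 ± 0.093 (log2 scale, SE, adjusted p = 0.823) by the authors' deposited table. Of 14 genes on the list of PPAR alpha and partner factors, 3 were called positive and 1 negative (Ppargc1a). The positive calls were Pparg and the fatty acid binding protein genes Fabp2 and Fabp1. Over all tested genes the shares called positive and negative were 3.67% and 2.9%. Fabp1 is also on the list of PPAR alpha targets, and without genes that another list also holds, 3 were called. Fabp1, the fatty acid binding protein of liver, was at 0.92 ± 0.25 and Fabp2, the intestinal form, at 1.44 ± 0.20 (log2 scale, SE) by the authors' deposited table. Pparg, the receptor best known from fat cells, was at 1.26 ± 0.25, and the coactivator gene Ppargc1a at -1.30 ± 0.22 (log2 scale, SE) by the authors' deposited table. Whether the Cyp4a targets differ from the other PPAR alpha targets was not tested.

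**Figure D5:**
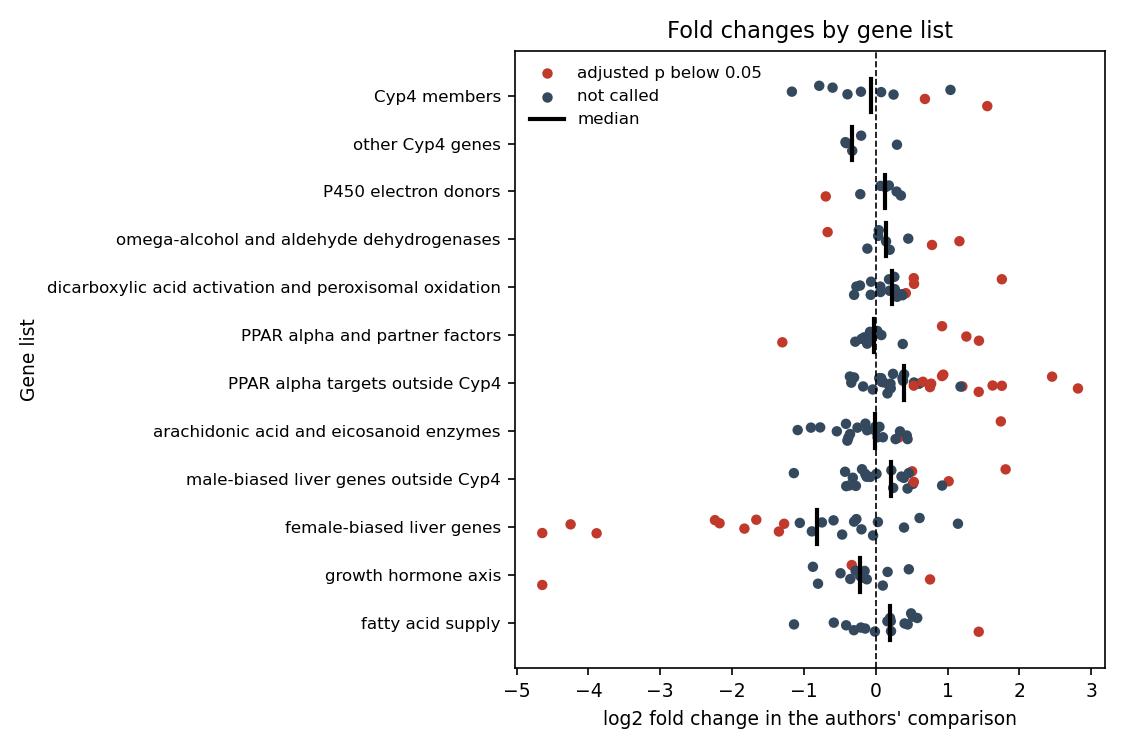
Log2 fold change of each tested gene in the Cyp4 members and 11 comparison lists, from the authors' deposited table; points are genes, red an adjusted p below 0.05, black bars list medians, and the vertical spread has no meaning. The median is -0.065 for the Cyp4 members, 0.39 for PPAR alpha targets and -0.82 for female-biased genes.

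Because Cyp4a12a and Cyp4a12b are male-biased, sex-biased liver genes were set beside them. Of 23 tested male-biased genes outside Cyp4, 4 were called positive and 0 negative, beside 3.67% and 2.9% of all tested genes, with a median log2 fold change of 0.22. Mup20, a major urinary protein that acts as a male pheromone, was at 1.02 ± 0.18 (log2 scale, SE) by the authors' deposited table; near-identical Mup copies make that value uncertain. Cyp2d9 at 0.51 ± 0.15, Ces2e at 0.53 ± 0.17 and Selenbp2 at 1.81 ± 0.61 (log2 scale, SE) were also called in the authors' deposited table. By its p-value of 3.55e-13 in the authors' deposited table, Cyp4a12a stood ahead of all 4. By its estimate of 1.55 it stood below Selenbp2, and differences between these genes were not tested. Slco1a1, an organic anion transporter of male liver, was at 0.011 ± 0.37 (log2 scale, SE, adjusted p = 0.993) by the authors' deposited table. Of 22 tested female-biased genes 9 were called negative and 0 positive, beside 2.9% and 3.67% of all tested genes, with a median log2 fold change of -0.82. By sign, 18 of the estimates were negative and 4 positive. The steroid and fatty acid hydroxylase genes Cyp2c40 and Cyp2c69 were at -3.89 ± 0.43 and -4.25 ± 0.58, values that near-identical Cyp2c copies make uncertain, by the authors' deposited table (log2 scale, SE). Cux2, a repressor of male-biased genes in female liver, was at -4.64 ± 0.78 and the transporter gene Slco1a4 at -1.83 ± 0.36 (log2 scale, SE) by the authors' deposited table. Mean normalized counts there were 68.8 for Cyp2c40, 29.0 for Cyp2c69, 114.7 for Cux2 and 637.5 for Slco1a4. In the growth hormone axis, which sets sex-biased expression in liver through STAT5, 1 of 15 genes was called positive and 2 negative. Over all tested genes these shares were 3.67% and 2.9%. Cux2, 1 of the negative calls, is also on the female-biased list. Without genes that another list also holds, 2 were called. Stat5a was at 0.76 ± 0.15 and Igf1 at -0.33 ± 0.097 (log2 scale, SE, both called), and Stat5b, the main form in liver, was at 0.10 ± 0.14 (log2 scale, SE, adjusted p = 0.768) by the authors' deposited table.

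Arachidonic acid and eicosanoid enzymes had 2 of 23 tested genes called positive and 0 negative, beside 6.57% of all tested genes called in either direction, with a median log2 fold change of -0.015. Cyp2j5, an arachidonic acid epoxygenase, was at 0.32 ± 0.10 and the prostaglandin E synthase gene Ptges at 1.74 ± 0.56 (log2 scale, SE) by the authors' deposited table. Ptges had a mean normalized count of 19.5 there, in the authors' deposited table. Ephx2, the soluble epoxide hydrolase, was at 0.34 ± 0.17 (log2 scale, SE, adjusted p = 0.242) by the authors' deposited table.

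Defining markers of hepatocytes were abundant, from 12998.5 for Serpina1a to 1079860 for Alb as mean normalized counts in the authors' deposited table. Of these 14 markers 3 were called negative (Tat, Cps1 and Ahsg) and 0 positive, with a median log2 fold change of -0.26. Over all tested genes 2.9% were called negative and 3.67% positive. The kidney genes Slc34a1, Slc5a2 and Cubn of the proximal tubule and Umod of the thick ascending limb had mean normalized counts of 0.440, 0.483, 1.87 and 0.0943, and Adipoq, Retn and Plin1 of adipocytes 0.387, 0.558 and 0.439, in the authors' deposited table. Among 18 markers of other liver cells 1 was called, beside 6.57% of all tested genes. It was the Kupffer cell gene Timd4, at -0.76 ± 0.26 (log2 scale, SE, adjusted p = 0.0494) by the authors' deposited table. That list had a median log2 fold change of -0.30. The table holds 5 kidney markers, of which 1, Lrp2, was tested and 0 were called. Lrp2 had a mean normalized count of 18.7 and was at -0.55 ± 0.49 (log2 scale, SE, adjusted p = 0.602) by the authors' deposited table. Of 3 tested adipocyte markers 1 was called positive, beside 3.67% of all tested genes. It was Cfd, the complement factor adipsin, at 7.93 ± 0.69 with a mean normalized count of 395.2 by the authors' deposited table (log2 scale, SE). The other tested adipocyte markers were Fabp4, a fatty acid binding protein, at 0.73 ± 0.31 and Lipe, the hormone-sensitive lipase, at 0.45 ± 0.17 (log2 scale, SE), with adjusted p-values of 0.151 and 0.0883 by the authors' deposited table. Their mean normalized counts were 435.0 for Fabp4 and 288.2 for Lipe in the authors' deposited table. All 3 tested adipocyte markers had a positive estimate and an unadjusted p below 0.05, beside 9.64% of all tested genes. Their median log2 fold change was 0.73. The part of cell makeup in the Cyp4 values was not tested.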

How the data were processed

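Per the labels' protocols, libraries for liver RNA of 16 mice came from a KAPA stranded mRNA kit. The submitters' processing notes list the build GRCm38 and, as tools, HTSeq 0.11.1, HISAT2, Trimmomatic and FastQC, with no role or order and no strand setting. Per the file headers, the authors deposited a mean normalized count per gene (a signal that is never negative), a log2 fold change, its standard error, a test statistic (a score), a p-value and an adjusted p-value. No source used here names the model, the samples or the sides of that comparison. A further 16 library columns match no label and were not used, so no comparison between groups, replicate or depth per sample is given, and p-values rest on the authors' model. Checked on the values, the statistic is the fold change over its standard error, the p-value its 2-sided normal p, and the adjusted p the Benjamini-Hochberg value over 16288 genes, whose lowest mean normalized count was 2.95.

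Calls are adjusted p-values below 0.05, and intervals are 95% normal intervals. Members, lists and tests were chosen with earlier results of these data known. Named genes are the members, tested Cyp4 genes, called genes of each list (the 4 with the smallest p where more were called) and called neighbours; 1 gene that this rule names is not reported here. Other genes were named after their values were seen. These are Cyb5a, Ehhadh, Aqp7, Cpt1a, Ppara, Rxra, Slco1a1, Stat5b, Ephx2, Gm45753 and the cell markers that were not called. Positions, exon lengths and transcripts are from GENCODE M21, matched by identifier for 99.8% of genes. Coding sequences were aligned globally with Biopython 1.88, in place of the planned protein alignment, and the planned count test on libraries was not run. The adjustment was run on simulated independent statistics, which checks its computation and not the authors' calls.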

Additional observations from a re-analysis of the deposited data

How the results depend on the processing

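No paired analysis was possible because the library columns carry no sample name or replicate number, and leaving out replicates or other count tools was not run for the same reason. The count of called Cyp4 genes was 2, and it fell to 1, Cyp4a12a alone, with every gene that has a p-value in the adjustment (1), with Bonferroni adjustment (1), with the statistic divided by its median absolute deviation (1) and at an adjusted p below 0.01 (1). Of all genes in the adjustment, these settings called 2.52%, 1.14%, 0.872% and 3.01%, beside 6.57%; as counts, 768, 185, 142 and 491 genes, beside 1070. At an adjusted p below 0.10 the count was 3, with Cyp4a14 (9.75% of all genes). It was 2 with count minimums of 10 (7.94%) or 100 (9.09%), with the median of all genes removed (6.54%) and with a minimum of 1.5-fold (3.21%, 523 genes). The adjusted p of Cyp4a12a lay between 1.84e-10 and 0.000292 over these settings. That of Cyp4a12b lay between 0.0295 and 1, with 0.0684 when every gene with a p-value was adjusted. The 10 genes had a median of -0.065 (log2 fold change) and, with 1 value per group of near-identical copies (chosen after seeing the data), 0.076. Without genes held by another list, called genes numbered 2 for dicarboxylic acid activation and peroxisomal oxidation, 0 for fatty acid supply, 8 for PPAR alpha targets, 3 for PPAR alpha and partner factors, 8 for female-biased genes and 2 for the growth hormone axis, and the other 4 pathway lists had the same count. The reported values rest on 1 comparison, with the spread between libraries not analysed here, and shared sequence limits the values of single Cyp4a copies.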
